A study of Rattus norvegicus with 16 samples.

Results

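The 8 genes described here build and load the class II molecules of the major histocompatibility complex (MHC) of the rat. They are Cd74, Ciita, RT1-Ba, RT1-Bb, RT1-Da, RT1-Db1, RT1-DMa and RT1-DMb, taken by symbol from the deposited count table, which held 8 of 8 among 23285 genes. All 8 passed the filter on low counts, which left 16948 genes for testing. RNA had been sequenced from 4 tendons of Sprague Dawley rats, an outbred strain, with 4 libraries from each. Achilles and patellar tendon are hindlimb tendons, and the forepaw flexor and supraspinatus tendons are forelimb tendons. No treatment, genotype, age or sex is given in the sources used here, and whole tendon RNA was used, so every cell type in the dissected piece contributed. Nothing in the labels states that each library is a separate animal. The p-values therefore measure the spread between these libraries, and how much of it is between animals is not stated. All pairs of libraries of a tendon differed beyond counting noise, with a chi-square of at least 72.7 per degree of freedom.

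Class II molecules are pairs of an alpha and a beta chain that carry peptides from the endosomes to the surface of an antigen-presenting cell, where CD4 T cells read them. In the rat, RT1-Da and RT1-Db1 encode the chains of RT1.D, and RT1-Ba and RT1-Bb those of RT1.B. Cd74, the invariant chain, fills the groove of new molecules and guides them to endosomes, and the DM chains encoded by RT1-DMa and RT1-DMb help to exchange the remnant of Cd74 for a peptide. Ciita is a coactivator that does not bind DNA itself: it is recruited by factors bound to the X and Y boxes of class II promoters, and interferon-gamma is its best known inducer outside dendritic cells and B cells.

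The Y box core of 5 members is shown, with the X box core where it was found. X and Y boxes are the sequence feature that ties these genes to Ciita. The RefSeq promoter table, on build GRCr8, held 6 of the 8 members and not Ciita or RT1-DMb. Each line is the 65 bases around the Y box core, read 5′ to 3′ on the gene's own strand, with matches to ACNGATG, the end of the X box, and to TGATTGG, the core of the Y box, in capitals.
RT1-Da: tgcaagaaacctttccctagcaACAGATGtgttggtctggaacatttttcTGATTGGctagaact
RT1-Db1: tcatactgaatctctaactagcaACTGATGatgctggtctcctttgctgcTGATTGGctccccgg
RT1-Bb: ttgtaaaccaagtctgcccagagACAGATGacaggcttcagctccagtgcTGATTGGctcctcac
RT1-DMa: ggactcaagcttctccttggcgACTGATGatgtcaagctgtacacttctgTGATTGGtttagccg
RT1-Ba: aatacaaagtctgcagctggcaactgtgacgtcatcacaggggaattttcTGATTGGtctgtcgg
These windows lie at chr20:4515314-4515378 on the plus strand for RT1-Da and at chr20:4576962-4577026 on the plus strand for RT1-Ba. On the minus strand they lie at chr20:4560230-4560294 for RT1-Db1, chr20:4604167-4604231 for RT1-Bb and chr20:4712387-4712451 for RT1-DMa.

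In RT1-Da, RT1-Db1, RT1-Bb and RT1-DMa the X core preceded the Y core by 20 or 21 bases. Both letter patterns were written down after these promoters had been read, so their presence in the members is a description. The 2 patterns do not overlap in these windows. Searched on both strands of 33469 promoters of 300 bases, the Y core matched in 7.06% and the X core in 10.2%. An X core followed on the same strand by a Y core within 25 bases was found in 13 promoters (0.0388%). Besides the 4 members they included those of RT1-Db2 and RT1-DOb, which are class II genes as well. The remaining matches lay in promoters of genes outside the members and the class II genes named here. These were Slc4a5, G3bp2, Kantr, LOC120102866, LOC120095089 and LOC102551322. The RT1-Ba window held the Y core without that X core, and the Cd74 promoter held neither pattern, which says only that these letters are not in this window.

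The libraries held 63397591 to 102491699 counts each, and a count of 3 in a library equals 0.0266 to 0.0485 CPM. CPM are counts relative to the library total, here scaled by the TMM method. Fold changes are log2 values ± standard error (SE) from edgeR's quasi-likelihood test, with Benjamini-Hochberg adjustment over all 16948 genes and a threshold of 0.05. All 8 markers of tendon fibroblasts, among them Tnmd, Scx and Col1a1, had at least 640 counts in every library. Skeletal muscle markers summed to between 226.6 and 27164.5 CPM in hindlimb libraries and between 12363 and 192462 CPM in forelimb libraries. Muscle RNA was thus mostly higher in forelimb libraries, but the ranges overlapped, since patellar 1, at 27164.5 CPM, lay above the lowest forelimb library. Levels of different genes are not compared, since no transcript lengths were used.

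Before the levels are read, 4 libraries have to be set apart by their RT1 genes. The class I gene RT1-N2 had 6 counts in flexor 1, 6 in flexor 2, 8 in supraspinatus 1 and 6 in supraspinatus 2, against 660 to 3316 counts in each of the other 12 libraries. In the same 4 libraries RT1-T24-1, another class I gene, had 52 to 64 counts against 569 to 1525, and RT1-CE7 had 7129 to 8629 counts against 1289 to 4583. RT1 genes differ in sequence and number between rat haplotypes, and reads of an allele unlike the reference may align less well or to a neighbouring copy, so counts of one RT1 gene are uncertain across such libraries. All Achilles and patellar libraries were among the 12, and the forelimb tendons were mixed. These genes were singled out after their counts had been seen. Cd74 and Ciita lie outside the MHC region, and results for the RT1 members are given with and without these 4 libraries where that matters.

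Cd74 (ENSRNOG00000018735), the invariant chain, was high in both hindlimb tendons and low in both forelimb tendons. In Achilles libraries 1 to 4 it measured 893, 863, 753 and 734 CPM. In patellar libraries 1 to 4 it measured 648, 1227, 1556 and 1714 CPM. The flexor libraries gave 182, 217, 134 and 248 CPM, and the supraspinatus libraries 151, 275, 361 and 150 CPM. The highest forelimb library, supraspinatus 3, thus lay below the lowest hindlimb library, patellar 1. Forelimb against hindlimb, Cd74 was lower by a log2 fold change of -2.26 ± 0.23, a 4.77-fold difference (edgeR adjusted p = 1.8e-06).

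Ciita (ENSRNOG00000002659), the coactivator, followed the same order. Its levels were 10.6, 10.1, 7.75 and 8.77 CPM in Achilles libraries 1 to 4 and 5.95, 12.03, 18.6 and 20.4 CPM in patellar libraries 1 to 4. They were 2.10, 2.39, 1.69 and 2.23 CPM in the flexor and 1.62, 2.80, 4.83 and 1.13 CPM in the supraspinatus libraries. As for Cd74, supraspinatus 3 was the highest forelimb library and patellar 1 the lowest hindlimb library, and the limbs did not overlap. The difference was -2.30 ± 0.29 (edgeR adjusted p = 1.15e-05), behind which stood 70 to 1604 counts per library. Fewer cells that express a gene and less of its RNA per cell cannot be told apart in bulk tendon RNA, here and in all that follows.

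**Figure D1:**
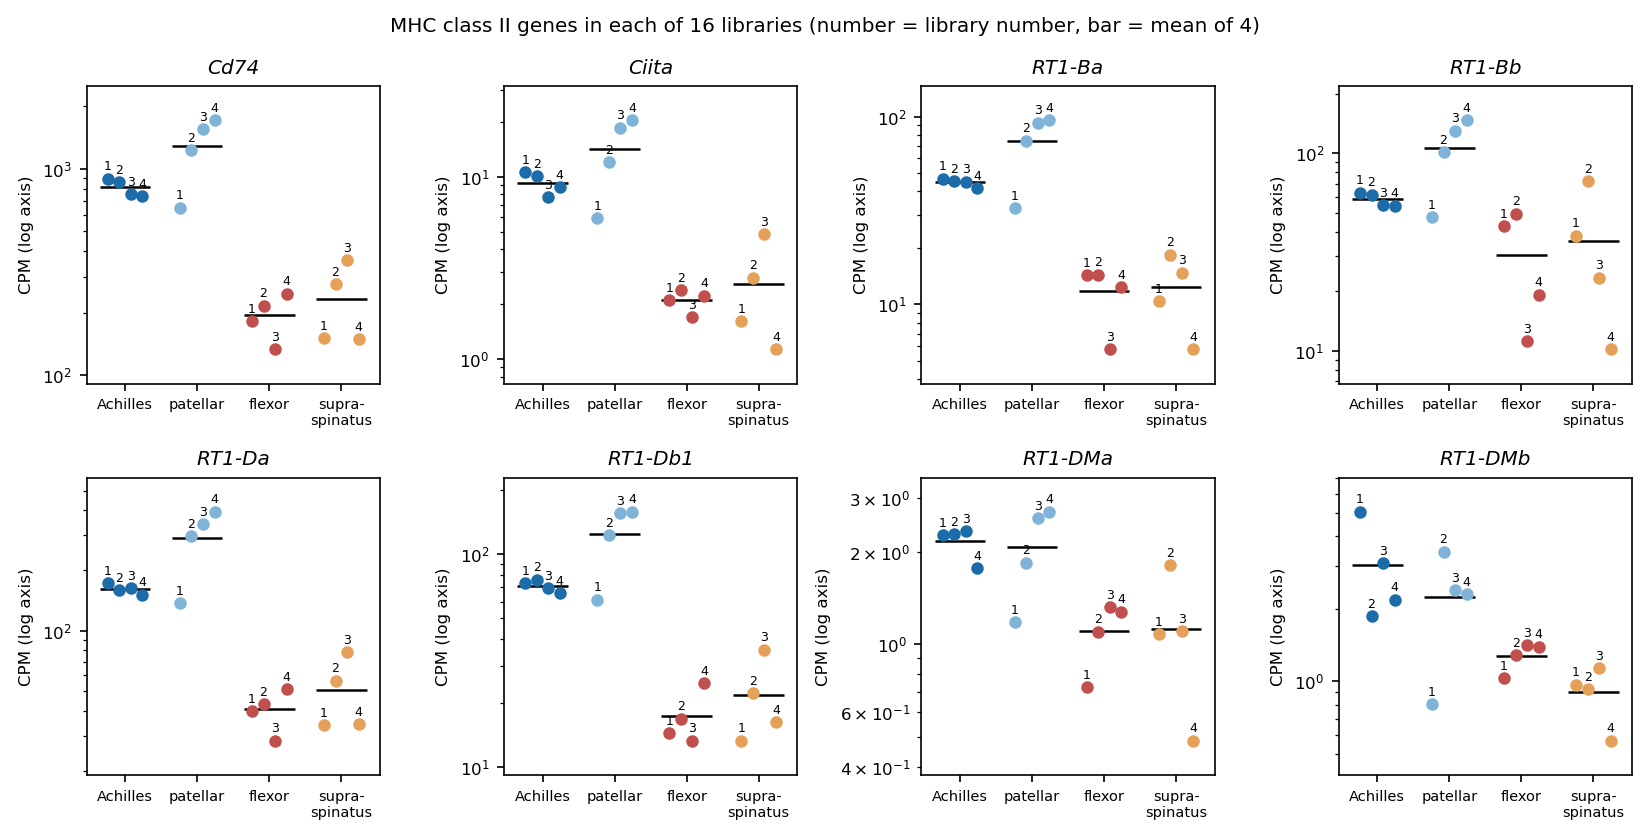
CPM (log axis, a separate scale for each gene) of the 8 class II genes in the 4 Achilles, 4 patellar, 4 flexor and 4 supraspinatus libraries, with each point a library marked by its number and each bar the mean of 4. For Cd74, Ciita, RT1-Ba, RT1-Da and RT1-Db1 every forelimb point sits below every hindlimb point; for RT1-Bb the points of flexor 1 and 2 and supraspinatus 1 and 2 sit above those of flexor 3 and 4 and supraspinatus 3 and 4.

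The RT1.D chains moved with Cd74. RT1-Da (ENSRNOG00000032844), the alpha chain, measured 173, 159, 163 and 151 CPM in Achilles and 137, 297, 340 and 392 CPM in patellar libraries 1 to 4. It measured 39.9, 43.0, 28.4 and 51.4 CPM in flexor and 34.0, 56.4, 78.6 and 34.2 CPM in supraspinatus libraries. The beta chain RT1-Db1 (ENSRNOG00000033215) ranged from 65.8 to 76.1 CPM in Achilles, 61.2 to 158 CPM in patellar, 13.3 to 24.8 CPM in the flexor and 13.3 to 35.7 CPM in the supraspinatus libraries. Neither gene overlapped between the limbs. The differences were -2.25 ± 0.23 for RT1-Da (edgeR adjusted p = 1.3e-06) and -2.27 ± 0.23 for RT1-Db1 (adjusted p = 1.5e-06). Without the 4 libraries set apart they were -2.19 and -2.08, and both still passed.

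Of the RT1.B chains, the alpha chain RT1-Ba (ENSRNOG00000000451) followed the same pattern. It measured 41.7 to 46.7 CPM in Achilles and 32.5 to 95.6 CPM in patellar tendon, against 5.78 to 14.4 CPM in the flexor and 5.78 to 18.4 CPM in the supraspinatus libraries, with no overlap between the limbs. Its difference was -2.26 ± 0.27 (edgeR adjusted p = 6.5e-06), -2.57 without the 4 libraries set apart and -2.002 without flexor 3 and 4 and supraspinatus 3 and 4.

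RT1-Bb (ENSRNOG00000032708), the beta chain of RT1.B, was split within the forelimb tendons. Achilles libraries 1 to 4 gave 63.0, 61.6, 54.4 and 54.1 CPM, and patellar libraries 1 to 4 gave 47.4, 101, 130.0 and 146 CPM. Flexor 1 and 2 measured 42.8 and 49.3 CPM but flexor 3 and 4 only 11.2 and 19.2 CPM. Supraspinatus 1 and 2 measured 38.2 and 71.9 CPM, and supraspinatus 3 and 4 23.4 and 10.2 CPM. The limbs overlapped, and the difference was -1.25 ± 0.38 (edgeR adjusted p = 0.0108). Without the 4 libraries set apart it was -2.30 (adjusted p = 0.000383), and without the 4 other forelimb libraries it was -0.65 and no longer passed (adjusted p = 0.0700). The part of RT1 sequence differences in this split was not tested.

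The DM genes, which encode the peptide exchange factor, had few counts, 30 to 256 per library for RT1-DMa (ENSRNOG00000047864) and 35 to 570 for RT1-DMb (ENSRNOG00000051002). RT1-DMa measured 2.27, 2.28, 2.33 and 1.77 CPM in Achilles and 1.18, 1.84, 2.57 and 2.70 CPM in patellar libraries 1 to 4. It measured 0.727, 1.099, 1.32 and 1.28 CPM in flexor and 1.08, 1.81, 1.102 and 0.485 CPM in supraspinatus libraries, so that the limbs overlapped. RT1-DMb measured 5.05, 1.86, 3.08 and 2.18 CPM in Achilles and 0.803, 3.45, 2.39 and 2.30 CPM in patellar libraries. Its flexor libraries gave 1.03 to 1.41 CPM and its supraspinatus libraries 0.566 to 1.13 CPM, and patellar 1 alone of the hindlimb libraries fell within the forelimb range. Forelimb against hindlimb, the differences were -0.93 ± 0.24 for RT1-DMa (edgeR adjusted p = 0.00435) and -1.28 ± 0.28 for RT1-DMb (adjusted p = 0.00107), smaller in size than the -2.25 to -2.30 of Cd74, Ciita, RT1-Ba, RT1-Da and RT1-Db1. Whether the members' differences were unequal was not tested.

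Taken as a group, 8 of 8 members were lower in the forelimb tendons, a direction called for 28.5% of all genes tested (58.8% in either direction). Their median log2 fold change was -2.25 beside 0.02 over all genes. Forelimb and hindlimb libraries did not overlap for 5 of 8 members, and for 15.4% of all genes. Without the 4 libraries set apart all 8 members were called lower, and without the 4 other forelimb libraries 7 were, all but RT1-Bb. The percentages above belong to the fit to all 16 libraries, and none is given for these smaller fits.

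The F test among the 4 tendons was passed by 8 of 8 members (75.6% of all genes). Between Achilles and flexor tendon, 7 of 8 were higher in Achilles, with log2 fold changes of 0.97 to 2.14 (47.7% of all genes called, 23.5% higher). RT1-Bb differed by 0.93 ± 0.53 and did not pass (edgeR adjusted p = 0.166), although with 1.94 it passed once the 4 libraries set apart were left out (adjusted p = 0.0103). Libraries of these 2 tendons did not overlap for 8 of 8 members and for 46.5% of all genes. The RT1-DMb call was lost without Achilles 1, its highest library (0.90, adjusted p = 0.0660).

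Between Achilles and supraspinatus tendon, 7 of 8 members were again higher in Achilles, by 0.95 to 1.86 (50.1% of all genes called, 25.4% higher). The exception was again RT1-Bb, at 0.70 ± 0.53 (edgeR adjusted p = 0.291), which passed with 1.80 without the 4 libraries set apart (adjusted p = 0.0119). For 6 of 8 members, against 44.2% of genes, the libraries did not overlap.

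Patellar tendon was compared with the forelimb tendons in the same way. Against flexor tendon, 7 of 8 members were higher in patellar tendon, listed as flexor against patellar with log2 fold changes of -0.91 to -2.84 (50.5% of all genes called, 24.7% lower). RT1-DMb, at -0.81 ± 0.39, did not pass (edgeR adjusted p = 0.0967), but with -1.12 it passed without patellar 1 (adjusted p = 0.0109). Against supraspinatus tendon 8 of 8 members were higher in patellar tendon, by 0.89 to 2.58 (56.4% of all genes called, 28.8% higher). In both comparisons 5 of 8 members did not overlap (48.8% and 48.3% of genes). Without flexor 3 and 4 and supraspinatus 3 and 4 the count against supraspinatus tendon was 5. The share of all genes called in that smaller fit is not given.

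RT1-DMa was the least firm of the calls between pairs of tendons. Its edgeR adjusted p ran from 0.0309 to 0.0398 in the 4 pairs that it passed. In each of these pairs it missed the threshold when any of several single libraries was left out, with an adjusted p of at most 0.119. RT1-Bb missed the threshold between patellar and supraspinatus tendon without patellar 3, patellar 4 or supraspinatus 3 (adjusted p of 0.0554 to 0.0638).

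**Figure D2:**
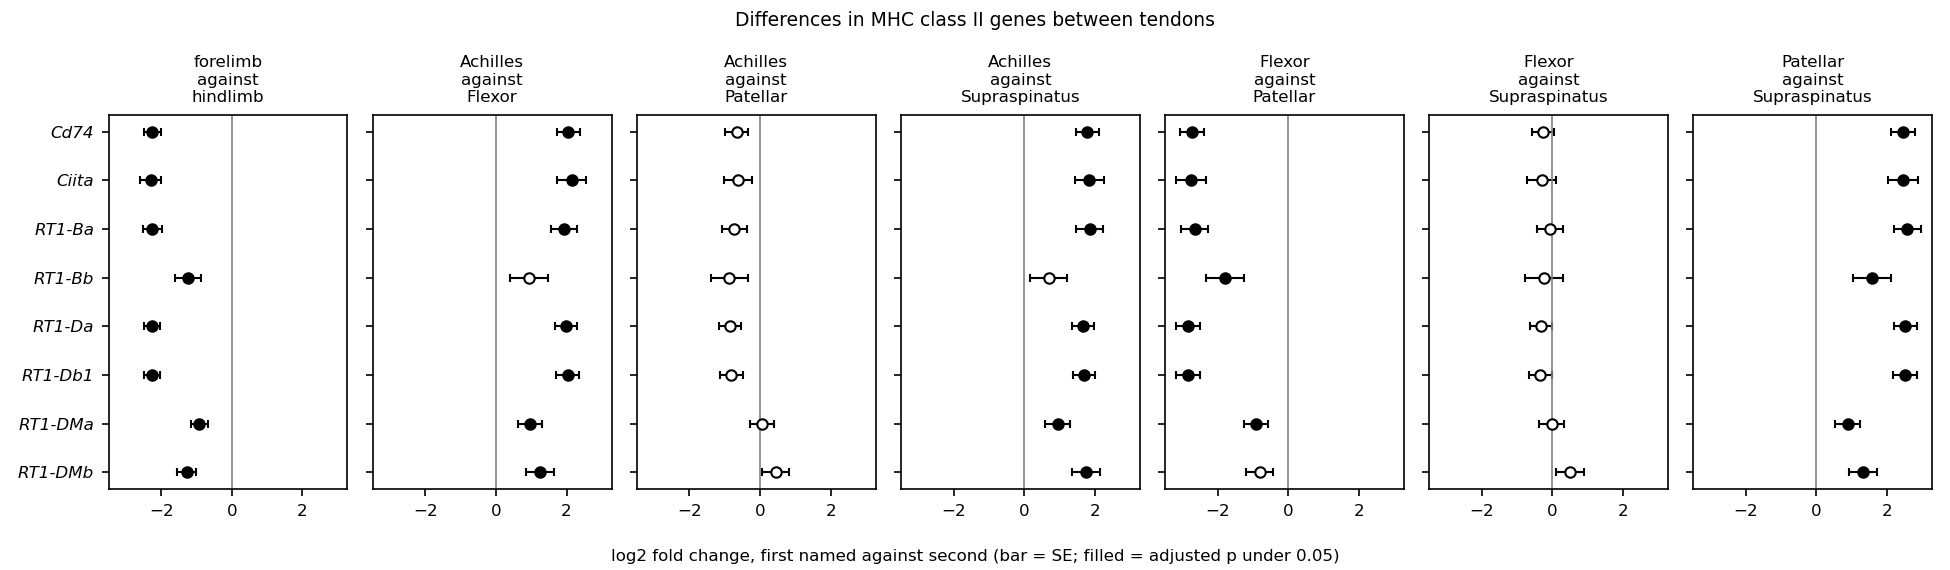
Log2 fold change (point) and SE (bar) of each class II gene for the forelimb against the hindlimb tendons and for the 6 pairs of tendons, the first named against the second; filled points have an edgeR adjusted p under 0.05. All 8 points are filled for forelimb against hindlimb, and none is filled for Achilles against patellar or flexor against supraspinatus tendon.

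Within a limb no member passed the test. Between Achilles and patellar tendon 0 of 8 members were called by edgeR (5.16% of all genes called), and DESeq2 and limma-voom gave 0 as well. At an unadjusted p under 0.05 there were 2, RT1-Da at -0.85 ± 0.31 and RT1-Db1 at -0.81 ± 0.31 in Achilles against patellar tendon. Without patellar 1 both were called, at -1.08 (adjusted p = 0.0252) and -1.04 (adjusted p = 0.0361), so whether these genes were called depended on that library. Patellar 1 was the lowest patellar library for all 8 members, and it was also the patellar library with the most skeletal muscle marker RNA, 27164.5 CPM against at most 3690 CPM in the other 3. Summed over the 8 genes, patellar 1 measured 934 CPM against 1840, 2298 and 2531 CPM, and the Achilles libraries lay between, at 1060 to 1267 CPM. The part of the muscle RNA in this was not tested.

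Between flexor and supraspinatus tendon 0 of 8 members were called by edgeR, DESeq2 or limma-voom, and 0 had an unadjusted p under 0.05, in a comparison that called 47.7% of all genes. The log2 differences ran from -0.34 ± 0.31 for RT1-Db1 to 0.50 ± 0.39 for RT1-DMb. No member's libraries separated these tendons (48.1% of genes did), and none separated Achilles from patellar tendon (12.5% of genes). The sum of the members was 300.1 ± 73.9 CPM in the flexor and 359.9 ± 148 CPM in the supraspinatus libraries (SD, n = 4). In Achilles tendon it was 1161 ± 97.9 CPM and in patellar tendon 1901 ± 706 CPM (SD, n = 4).

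By mean level, patellar tendon came first, then Achilles, supraspinatus and flexor tendon, for Cd74, Ciita, RT1-Ba, RT1-Bb, RT1-Da and RT1-Db1. For Cd74 the means were 1286 ± 471, 811 ± 78.9, 234 ± 103 and 195 ± 49.0 CPM in that order (SD, n = 4). The DM genes were instead highest in Achilles tendon: RT1-DMb averaged 3.04 CPM there, 2.24 CPM in patellar, 1.28 CPM in the flexor and 0.899 CPM in the supraspinatus libraries. In each of these orders the neighbours within a limb did not pass the test.

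The members kept close proportions across libraries apart from RT1-Bb and the DM genes. Counts of RT1-Da relative to Cd74 lay between 0.184 and 0.242 in all 16 libraries, while Cd74 itself ranged from 134 to 1714 CPM. Counts of Ciita relative to Cd74 lay between 0.00757 and 0.0134. Over the 16 libraries, Pearson's r of log2 CPM with Cd74 was 0.997 for RT1-Da, 0.994 for RT1-Db1, 0.988 for Ciita and 0.977 for RT1-Ba. It was 0.81 for RT1-DMa, 0.80 for RT1-Bb and 0.73 for RT1-DMb. These correlations are descriptions: the points share 4 tendons, and the separation of the limbs enters each of them.

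The ratio of RT1-Bb to RT1-Da was the sharpest divide among the members. It was 1.07 and 1.15 in flexor 1 and 2 and 1.12 and 1.27 in supraspinatus 1 and 2, against 0.297 to 0.395 in the other 12 libraries. RT1-Ba relative to RT1-Da was 0.306 to 0.359 in the same 4 libraries and 0.169 to 0.285 in the others. RT1-Db1 relative to RT1-Da was 0.361 to 0.395 against 0.404 to 0.482. RT1-Da relative to Cd74 showed no such split, with 0.198 to 0.226 in the 4 libraries, inside the range of the others. The 4 libraries are those with at most 8 counts of RT1-N2, and since only forelimb tendons hold them, RT1 type and limb cannot be fully told apart for the RT1 genes. Whether both limbs came from the same rats is not stated. Limb and animal may therefore not be separable for the other genes either, Cd74 and Ciita included.

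**Figure D3:**
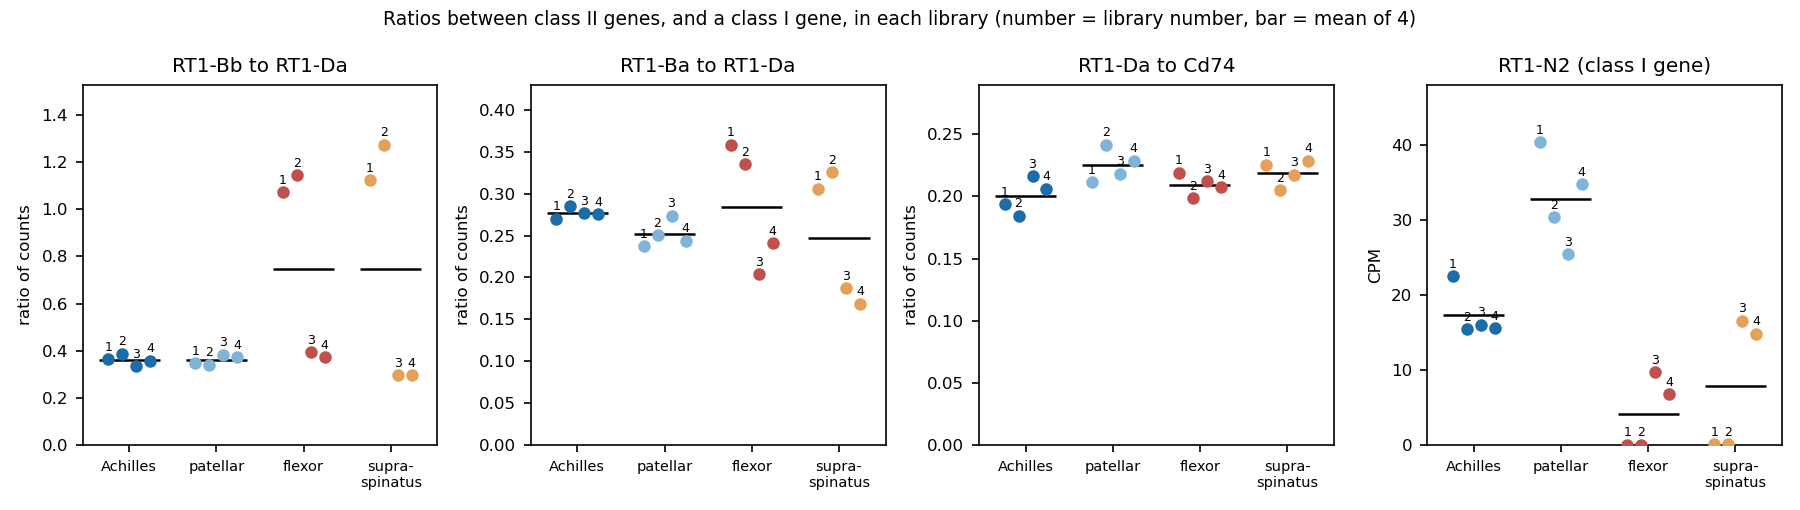
Ratios of counts between class II genes (RT1-Bb to RT1-Da, RT1-Ba to RT1-Da, RT1-Da to Cd74) and CPM of the class I gene RT1-N2 in each library; points are libraries with their number and bars are means of 4. Flexor 1 and 2 and supraspinatus 1 and 2 have RT1-Bb to RT1-Da ratios of 1.07 to 1.27 and RT1-N2 near 0, while RT1-Da to Cd74 stays between 0.184 and 0.242 in all libraries.

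Of 6 further genes related to class II, 4 class II genes and 2 ubiquitin ligases, 5 passed the filter, 4 were lower in the forelimb tendons and 0 were higher, with a median of -1.57. The limb comparison averages the tendons of each limb, so a small limb value can hide a difference between the forelimb tendons. Some genes that differed in 1 forelimb tendon alone are pointed out below. RT1-DOa and RT1-DOb, which encode the chains of the DM inhibitor DO, were lower by log2 fold changes of -2.56 ± 0.25 (edgeR adjusted p = 1.1e-06) and -1.57 ± 0.37 (adjusted p = 0.00211). RT1-DOa measured 2.67 to 3.396 CPM in Achilles and 1.99 to 6.89 CPM in patellar tendon, against 0.302 to 0.804 CPM in the flexor and 0.515 to 0.858 CPM in the supraspinatus libraries, with no overlap between the limbs. RT1-DOb was highest in patellar tendon, with a mean of 3.07 CPM against 1.32 CPM in Achilles tendon. Its mean was 0.663 CPM in the flexor and 0.689 CPM in the supraspinatus libraries, and the limbs overlapped. RT1-Db2, a second RT1.D beta gene, gave -3.31 ± 0.50 (adjusted p = 5e-05). It had 9 to 21 counts in the 4 libraries set apart and 55 to 806 counts in the others, and as a near copy of RT1-Db1 it may share reads with it.

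The MARCH ubiquitin ligases, which remove class II molecules from the cell surface, differed in pattern. Marchf1, the ligase of resting dendritic cells and B cells, was lower in the forelimb tendons by -1.11 ± 0.32 (edgeR adjusted p = 0.00838), and among the pairs it passed against supraspinatus but not against flexor tendon. Marchf8, which is more widely expressed, gave 0.03 ± 0.23 for the limbs (adjusted p = 0.915). It was higher in flexor than in supraspinatus tendon by 2.11 ± 0.34 (adjusted p = 0.00016), with a mean of 100.6 against one of 23.3 CPM.

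The DNA-binding partners of Ciita showed another pattern. Of 7 genes of the RFX and NF-Y complexes and Creb1, 6 passed the filter, 0 were lower in the forelimb tendons and 2 were higher, with a median of 0.20. Rfxank, an RFX subunit, was higher by 0.40 ± 0.07 (edgeR adjusted p = 0.000216) and Nfyb, a subunit of the Y box factor NF-Y, by 0.49 ± 0.07 (adjusted p = 5.2e-05). Rfxank was high in supraspinatus tendon only, with a mean of 20.9 CPM against 12.4 CPM in the flexor, 11.9 CPM in patellar libraries and 12.5 CPM in those of Achilles tendon, and flexor tendon did not pass against either hindlimb tendon. On library totals without TMM 1 gene of the list was called higher. Rfx5, another RFX subunit, gave -0.08 ± 0.16 (adjusted p = 0.711). Its means were 26.1 CPM in Achilles, 30.9 CPM in patellar, 33.6 CPM in the flexor and 21.6 CPM in the supraspinatus libraries. Nfya, Nfyc and Creb1 gave 0.06, 0.11 and 0.29 and did not pass.

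Genes of the interferon-gamma pathway, the route by which Ciita is induced in many cells, were lower in the forelimb tendons for 7 of the 10 that passed the filter and higher for 1, with a median of -0.83. Irf1, a transcription factor downstream of the receptor, measured 51.4 to 71.5 CPM in Achilles and 69.1 to 72.3 CPM in patellar tendon, against 20.7 to 30.4 CPM in the flexor and 20.5 to 31.5 CPM in the supraspinatus libraries. Irf1 thus separated the limbs without overlap, at -1.35 ± 0.10 (edgeR adjusted p = 1.2e-07). The chemokines Cxcl9 and Cxcl10 were lower by -2.70 ± 0.32 and -2.81 ± 0.26, and Gbp2, an interferon-induced GTPase, by -1.06 ± 0.12. Irf8, a factor of the dendritic cell and monocyte lineage, was lower by -2.004 ± 0.12. The receptor chains Ifngr1 and Ifngr2 were lower by -0.60 ± 0.10 and -0.42 ± 0.06.

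The kinase Jak2 was called higher for the limbs, at 0.45 ± 0.17 (edgeR adjusted p = 0.0335), but the forelimb tendons lay at opposite ends. Its mean was 78.0 CPM in the flexor and 15.4 CPM in the supraspinatus libraries, with Achilles at 21.3 CPM and patellar tendon at 30.4 CPM between them. The call for the limbs was lost on library totals and without Achilles 1 and patellar 1. Jak1 and the feedback inhibitor Socs1 gave -0.03 ± 0.13 and -0.11 ± 0.33 and did not pass. Their forelimb tendons also lay at opposite ends. Flexor against supraspinatus tendon gave 1.09 ± 0.18 for Jak1 (edgeR adjusted p = 0.000212) and 2.53 ± 0.49 for Socs1 (edgeR adjusted p = 0.000732). Ifng itself was not detectable as a difference: it had 0 counts in every patellar, flexor and supraspinatus library and at most 2 in an Achilles library, where 3 counts correspond to 0.0266 to 0.0485 CPM.

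Class I genes, which present cytosolic peptides to CD8 T cells, shared the direction: 11 of 14 were lower in the forelimb tendons and 1 was higher, with a median of -0.78. B2m, the light chain of class I, measured 834 to 1283 CPM in Achilles and 1383 to 1558 CPM in patellar tendon, against 417 to 557 CPM in the flexor and 524 to 727 CPM in the supraspinatus libraries. The limbs did not overlap, and B2m was lower by -1.13 ± 0.11 (edgeR adjusted p = 7.2e-07). RT1-A2, a class I heavy chain, was lower by -1.11 ± 0.11, the peptidase Erap1 by -0.41 ± 0.07 and the loading chaperone Tapbp by -0.56 ± 0.11. The gene called higher, named after its value was seen, was RT1-A1 (0.65 ± 0.25, adjusted p = 0.0384), whose call was lost under limma-voom, on library totals and without the 4 libraries set apart.

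The shared machinery of the endosome showed little of this pattern. Of 9 proteases and lysosomal genes, 2 were lower and 2 were higher in the forelimb tendons, with a median of -0.03. Ctss, the protease best known for cutting Cd74 in antigen-presenting cells, gave -0.03 ± 0.21 (edgeR adjusted p = 0.908), with means of 98.2 CPM in Achilles, 69.8 CPM in patellar, 89.4 CPM in the flexor and 73.4 CPM in the supraspinatus libraries. Ctsl, Ctsb, Ctsd and Lgmn gave values between -0.18 and 0.13 and did not pass. In the pairs, however, Ctsd was called higher in supraspinatus tendon against each other tendon. Its mean was 700 CPM there, against 503 CPM in the flexor libraries. Ctsh, an aminopeptidase, was lower by -0.94 ± 0.13, and Ifi30, the interferon-induced thiol reductase of antigen processing, by -0.85 ± 0.11. The lysosomal regulator Tfeb was higher by 1.16 ± 0.18, in each forelimb tendon against each hindlimb tendon. Lamp1, a lysosomal membrane protein, was called higher for the limbs at 0.87 ± 0.24 but was high in flexor tendon only. It averaged 727 CPM in the flexor libraries, against 108 CPM in supraspinatus, 189 CPM in patellar libraries and 124 CPM in those of Achilles tendon.

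Costimulatory genes were called lower in the forelimb tendons for 5 of 6, with a median of -0.96. Cd40 measured 6.61 to 11.1 CPM in Achilles and 8.65 to 9.50 CPM in patellar tendon and 3.10 to 3.95 CPM in the flexor and 3.59 to 4.34 CPM in the supraspinatus libraries, and was lower by -1.21 ± 0.11 (edgeR adjusted p = 5e-07). Cd86, a ligand of CD28, was lower by -0.93 ± 0.24, the adhesion molecule Icam1 by -0.92 ± 0.20, and the inhibitory ligand Cd274 by -0.99 ± 0.12. Cd86 passed against supraspinatus but not against flexor tendon in the pairs. Pdcd1lg2, another inhibitory ligand, was called lower for the limbs at -1.80 ± 0.39, but was low in flexor tendon only, with 1 to 4 counts per library. Its mean was 0.0272 CPM there, against 0.401 CPM in supraspinatus, 0.345 CPM in patellar libraries and 0.398 CPM in those of Achilles tendon. Cd80, the other CD28 ligand, gave 0.23 ± 0.24 and did not pass.

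**Figure D4:**
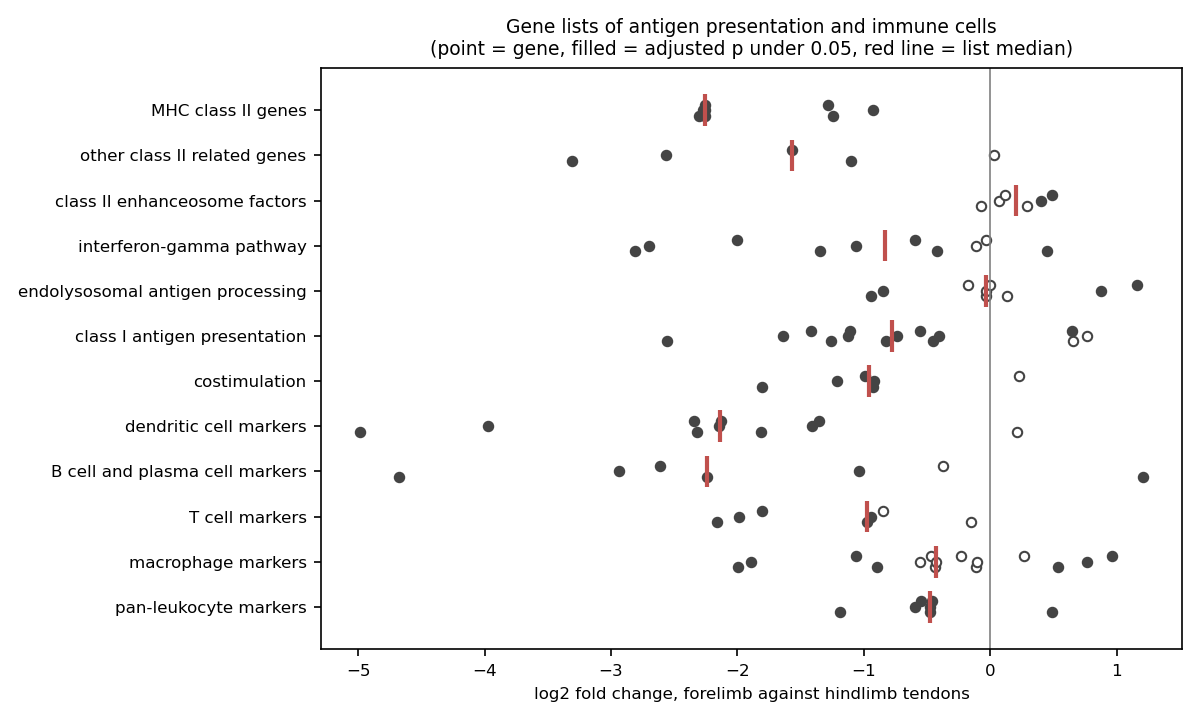
Log2 fold change, forelimb against hindlimb tendons, of each gene of the class II genes and of 11 further lists; each point is a gene, filled where the edgeR adjusted p is under 0.05, and the red line is the list's median. The class II genes have a median of -2.25, dendritic cell markers -2.14 and B cell and plasma cell markers -2.24, while the enhanceosome factors lie at 0.20 and the endolysosomal genes at -0.03.

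Markers of the cells that carry class II moved with the members to different degrees. Of 10 dendritic cell markers, 9 were lower in the forelimb tendons and 0 were higher (median -2.14). Among the 4 with the highest level, Clec10a was lower by -1.35 ± 0.20, Flt3, a growth factor receptor of dendritic cells, by -2.13 ± 0.34 and Clec9a, a marker of cross-presenting dendritic cells, by -1.81 ± 0.18, whereas Zbtb46 gave 0.21 ± 0.19 and did not pass. Between Achilles and flexor tendon Flt3 did not pass. Zbtb46 was highest in flexor tendon, above supraspinatus tendon by 1.68 ± 0.27 (edgeR adjusted p = 0.000179). Clec9a measured 2.15 to 2.97 CPM in Achilles and 3.08 to 5.08 CPM in patellar tendon, against 0.817 to 1.06 CPM in the flexor and 0.454 to 1.15 CPM in the supraspinatus libraries. The list's summed level was 76.4 to 161 CPM in hindlimb and 27.6 to 74.1 CPM in forelimb libraries. Siglech and Cd209a were at 0 in some forelimb libraries.

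Of 9 B cell and plasma cell markers 7 passed the filter, 5 were lower and 1, Mzb1, was called higher (median -2.24). Mzb1 was high in supraspinatus tendon only, with a mean of 0.586 CPM against 0.119 CPM in the flexor, 0.0812 CPM in patellar libraries and 0.160 CPM in those of Achilles tendon. The markers of this list were scarce, with sums of 4.87 to 17.7 CPM in hindlimb and 1.48 to 2.64 CPM in forelimb libraries, and Cd79a was at 0 in libraries of every tendon. Cd22, the most abundant of them, was lower by -2.61 ± 0.23 (edgeR adjusted p = 4.6e-07). T cell markers were lower for 5 of the 7 that passed (median -0.97), and their sums overlapped, at 31.4 to 65.1 CPM against 23.7 to 59.4 CPM. Cd4, the most abundant of the T cell list, gave -0.15 ± 0.21 and did not pass, and macrophages of the rat also express it. Cd4 averaged 44.2 of the list's 51.7 CPM in Achilles and 40.1 of 42.7 CPM in flexor tendon, so the T cell sums mainly follow Cd4. The limbs did not overlap for Lck, at 4.35 to 7.02 CPM in hindlimb and 0.944 to 1.87 CPM in forelimb libraries. They did not overlap for Cd2 either, at 0.567 to 1.64 CPM against 0.0647 to 0.369 CPM. For Cd3d, Cd3e, Cd3g and Cd8a they did overlap.

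Macrophage markers were called in both directions. Of 15, 4 were lower and 3 higher in the forelimb tendons (median -0.43), or 8 lower and 1 higher on library totals. Lyz2, Csf1r and C1qb, the most abundant, gave 0.26 ± 0.20, -0.11 ± 0.18 and -0.11 ± 0.20, and C1qc gave -0.44 ± 0.22. None of these 4 passed. The 4 called lower were Adgre1 (-1.89), Vsig4 (-1.99), Mertk (-1.07) and Cd68 (-0.90). The 3 called higher were Cd14 (0.96), Msr1 (0.76) and Lyve1 (0.54). In the pairs, Vsig4 was called higher in Achilles tendon than in each other tendon, patellar tendon included (5.25 ± 0.74). It was also called higher in flexor than in patellar tendon, by 1.66 ± 0.66. Msr1 and Lyve1 were called higher in each forelimb tendon against patellar tendon, but in neither against Achilles tendon. Csf1r measured 185 to 282 CPM in Achilles, 172 to 328 CPM in patellar, 207 to 346 CPM in the flexor and 119 to 260 CPM in the supraspinatus libraries. Summed macrophage markers ran from 1255 to 2714 CPM in hindlimb and from 1055 to 2789 CPM in forelimb libraries. No macrophage marker was at 0 in any library.

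Pan-leukocyte markers were lower for 6 of 7 and higher for 1, Itgb2, with a median of -0.48. Among the pairs, supraspinatus tendon had most of the calls, with 6 of 7 lower against Achilles and 6 of 7 lower against patellar tendon. Flexor tendon had 2 of 7 lower against Achilles, and 2 lower and 1 higher against patellar tendon. The sums overlapped, at 623 to 866 CPM in hindlimb and 369 to 702 CPM in forelimb libraries. Without the 4 libraries set apart 2 of the 7 were lower. The part of cell numbers in the members' difference was not tested.

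The members' summed level was also taken relative to the sums of 4 marker lists, as a description. Cd74 made up most of the members' sum, with a mean of 811 of 1161 CPM in Achilles and 195 of 300.1 CPM in flexor tendon. These ratios thus mainly follow Cd74. The summed CPM of the 8 members relative to that of the macrophage markers was 0.404 to 0.716 in Achilles and 0.744 to 1.28 in patellar libraries, against 0.0706 to 0.184 in flexor and 0.164 to 0.230 in supraspinatus libraries. Relative to the pan-leukocyte markers it was 1.32 to 1.69 and 1.499 to 2.96, against 0.280 to 0.581 and 0.560 to 0.935. Relative to the dendritic cell markers it was 12.8 to 14.4 in Achilles and 11.1 to 17.3 in patellar libraries, against 2.66 to 5.95 in flexor and 7.18 to 10.8 in supraspinatus libraries. For these 3 lists the forelimb and hindlimb libraries did not overlap. For the dendritic cell markers, however, patellar 1, the lowest hindlimb library, was close to the highest supraspinatus library. Clec10a and Zbtb46 made up most of the dendritic cell sum, and Zbtb46 alone averaged 25.5 of 62.2 CPM in flexor tendon. The ratio to this list thus mainly follows these genes, and no ratio to the other dendritic cell markers was taken. Relative to the endothelial markers the limbs did overlap: the ratio was 0.778 to 0.973 in Achilles and 0.421 to 1.66 in patellar libraries, against 0.508 to 0.799 in flexor and 0.194 to 0.618 in supraspinatus libraries.

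**Figure D5:**
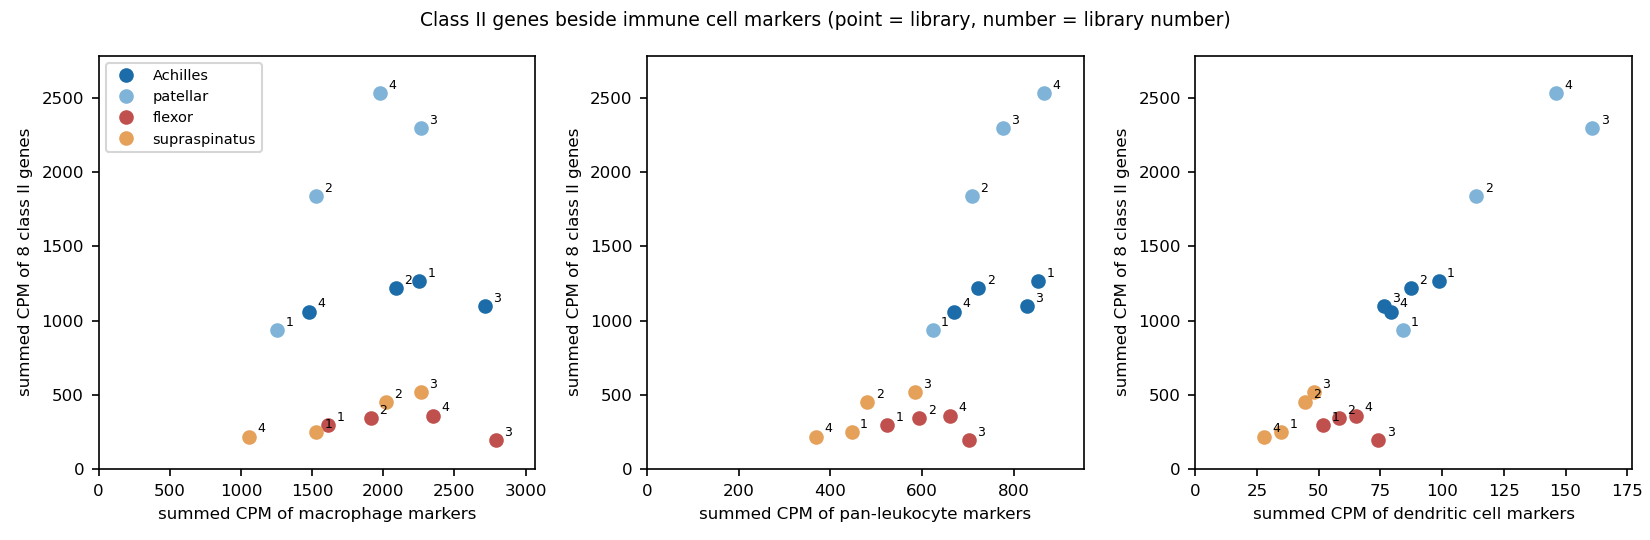
Summed CPM of the 8 class II genes (y axis) against the summed CPM of macrophage, pan-leukocyte and dendritic cell markers (x axes) in 16 libraries; each point is a library marked with its number and coloured by tendon. Hindlimb libraries sit at 934 to 2531 CPM of class II and forelimb libraries at 197 to 521 CPM, over overlapping ranges of macrophage markers (1255 to 2714 and 1055 to 2789 CPM). Cd74 makes up most of the class II sum.

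Other cell types also moved with the limb. Neutrophil and granulocyte markers were lower in the forelimb tendons for 6 of 6, endothelial markers for 7 of 7 and adipocyte markers for 5 of 6, and 8 of 8 skeletal muscle markers were higher. Between flexor and patellar tendon the muscle markers did not pass, at log2 fold changes of 0.23 to 2.10. Of 8 tendon fibroblast markers 1 was lower and 3 were higher. On a stricter filter of 1 CPM in 8 libraries, which tests fewer genes, the counts lower were 4 for dendritic cells, 1 for B cells, 1 for T cells and 2 for neutrophils.

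Among 14361 genes with a symbol outside the members, Itgb7, an integrin chain of leukocytes, was most like the members' mean pattern over the 16 libraries (Pearson's r = 0.984). It was followed by the aspartic protease Napsa (0.964), the leukocyte receptor Slamf7 (0.961), Gmfg (0.956) and Clec4a1 (0.952). Srpx, Fyb1, Erp29, Cd226 and Tyms completed the first 10, with r of 0.95. Likeness was also taken after each tendon's mean was removed. The first 10 were then Lat2 (0.935), Il1rl1 (0.924), Itgb7 (0.906), Rac2 (0.903), Apobr (0.898), Sash3 (0.895), Dok2 (0.891), Slamf7 (0.889), Lrrn4cl (0.888) and Ptpn6 (0.885). Itgb7 and Slamf7 stood in both lists.

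In the authors' deposited table of the 6 pairs, which listed 12588 genes, 7 of the 8 members were present and RT1-DMa was not. By its adjusted p-values 5 members passed between Achilles and flexor, 6 between Achilles and supraspinatus, 6 between flexor and patellar and 7 between patellar and supraspinatus tendon. The share of the 12588 genes called in each pair was not counted, so these counts are a description. In the fit to all 16 libraries, 47.7, 50.1, 50.5 and 56.4% of all genes were called in these pairs. The authors' deposited table called 0 members between Achilles and patellar and 0 between flexor and supraspinatus tendon. For RT1-DMb between Achilles and flexor tendon the authors' deposited table gave a log2 fold change of 0.95 and an adjusted p of 0.0533, where the fit to all 16 libraries gave 1.25 and 0.0158.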

How the data were processed

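Total RNA, purified with the miRNeasy Micro kit and DNase I per the labels, was sequenced in 16 libraries, 4 per tendon. The authors deposited whole-number counts per gene, with no normalization apparent in the values. The submitters' processing notes name HISAT2, FastQC, edgeR and build rn6. Which tool counted, on which annotation and with which strand setting, is not given in the sources used here. The authors' second table holds, per the file headers, log2 CPM and log2 fold changes and, also per the file headers, each pair's p-value and FDR.

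Groups are the tendons that the labels name. Genes were filtered with filterByExpr (minimum count 10, minimum total 15), scaled by TMM and fitted with 1 coefficient per tendon in edgeR 4.0.16 (R 4.3.3; 12 residual degrees of freedom), with a prior count of 2 for log2 CPM. Tests covered the 6 pairs, forelimb against hindlimb and an F test among all tendons, with Benjamini-Hochberg adjustment and a threshold of 0.05. Each SE is the size of the log2 fold change divided by the root of F. The test was tested on simulated data.

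The members and lists were chosen with earlier results of these data known. Of 153 symbols in 17 lists, 148 were matched, 3 by an older symbol, and 5 are not analysed here. All members were named, the genes of 5 related lists, up to 4 per other list by mean CPM, and the 10 genes most like the members over all libraries and within tendons. Some further genes, such as the called macrophage markers, were named after their values were seen. Other settings tried were library totals, median-of-ratios size factors, DESeq2 1.42.0, limma-voom (limma 3.58.1), no filter, a stricter filter, a replicate block, pairs alone and fits without single libraries or sets of libraries. The fits without flexor and supraspinatus 1 and 2, or 3 and 4, and the counts of the other lists under every fit were added after the data were seen. Figures used Python.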

Additional observations from a re-analysis of the deposited data

Results flagged for a closer look

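In 100 groups of 4 libraries, 32 of members and 68 of summed lists, 3 had 1 library far from the others by Dixon's criterion at its 95% critical value, and chance flags about 1 in 20. RT1-DMa in Achilles 4 was 1.77 CPM against 2.27 to 2.33 CPM in the other 3 Achilles libraries. The summed interferon-gamma list in supraspinatus 2 was 493 CPM against 447 to 449 CPM in the others. Summed skeletal muscle markers in patellar 1 were 27164.5 CPM against 226.6 to 3690 CPM, in the library that was lowest of the patellar libraries for all 8 members.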

How the results depend on the processing

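The forelimb against hindlimb count stayed at 8 of 8 members without any single library (range 8 to 8), with DESeq2, limma-voom and library totals, and was 7 without flexor 3 and 4 and supraspinatus 3 and 4. Other counts without a single library ranged from 5 to 7 for Achilles against flexor, 0 to 2 for Achilles against patellar, 6 to 7 for Achilles against supraspinatus, 6 to 8 for flexor against patellar, 0 to 0 for flexor against supraspinatus, 6 to 8 for patellar against supraspinatus and 7 to 8 among the tendons. Without Achilles 1 and patellar 1, Achilles against patellar had 1 member called. Without flexor 3 and 4 and supraspinatus 3 and 4, patellar against supraspinatus had 5. For fits that left out libraries the share of all genes called is not given, so these counts are a description. Library totals without TMM shifted the median of all genes by 0.41 for Achilles and for patellar against supraspinatus, 0.34 for flexor against supraspinatus and -0.24 for forelimb against hindlimb. The share of calls that were higher moved from 51.5 to 31.1% for forelimb against hindlimb, 50.7 to 78.7% for Achilles against supraspinatus, 49.0 to 78.3% for flexor against supraspinatus and 51.1 to 77.0% for patellar against supraspinatus. Sign changes concerned uncalled values. In flexor against supraspinatus, library totals gave Cd74 0.0528, RT1-Ba 0.24, RT1-Bb 0.0872 and RT1-DMa 0.29; leaving out flexor 3 and 4 and supraspinatus 3 and 4 gave Ciita 0.0848 and RT1-Ba 0.0582; RT1-DMa was 0.0485 with limma-voom, 0.0438 for the pair alone and 0.71 without flexor 1 and 2 and supraspinatus 1 and 2. In Achilles against patellar, without Achilles 1 and patellar 1, RT1-DMa was -0.15 and RT1-DMb -0.19. Without single libraries, flexor against supraspinatus ranged from -0.446 to 0.0261 for Cd74, -0.491 to 0.182 for Ciita, -0.249 to 0.185 for RT1-Ba, -0.606 to 0.356 for RT1-Bb, -0.605 to 0.00533 for RT1-Db1 and -0.209 to 0.312 for RT1-DMa, and Achilles against patellar from -0.130 to 0.209 for RT1-DMa. The cause was not tested. Library numbers were not taken to pair the samples, since the labels do not say so and no pair of tendons had every r over 0.1 (24 same-number pairs, r from -0.21 to 0.37, 9 over 0.1, own number best in 10). Within a limb, own number was best in 3 of 4 for flexor against supraspinatus (r from 0.0826 to 0.26) and 3 of 4 for Achilles against patellar. The libraries set apart by RT1 genes bore numbers 1 and 2 in both forelimb tendons, a hint from the data. Achilles and patellar libraries 1 and 2 were not among them. Whether equal numbers in forelimb and hindlimb mean the same rat is thus not known, and limb and animal may not be separable for any gene. With the replicate block the counts were 7, 0, 7, 7, 0 and 8 for the pairs in the order above and 8 for the limbs and among tendons, as without it. That block ties equal numbers across all tendons, which the labels do not state, so the equal counts cannot speak to pairing by animal.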
